A study of Mus musculus with 12 samples.

Results

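Interferon-stimulated genes are the genes that cells switch on when type I, type II or type III interferons bind their receptors. The group examined here was a list of 37 such genes, read by symbol with no threshold on their values, of 24421 gene symbols in the series. All 37 were found in the expression tables. A symbol listed with several transcripts was read from its most counted one.

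RNA-seq was done on whole kidneys of C57BL/6 male mice at about 6 weeks of age, with 3 libraries in each of 4 groups. Kidneys of WT and Tet2-/- mice without any operation formed the baseline groups. For ischemia-reperfusion (IR), mice of both genotypes had the right renal pedicle clamped for 60 min and the left kidney removed, and tissue was taken at 24 h. The knockout was constitutive, from breeding pairs of Tet2+/- mice on the C57BL/6J background, and was not limited to kidney cells. No sham-operated library was analysed here, and the IR groups therefore differed from baseline in anesthesia, abdominal surgery and nephrectomy as well as in ischemia.

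Interferon receptors signal through JAK kinases to STAT transcription factors. Complexes that hold STAT2 and IRF9 bind the interferon-stimulated response element (ISRE), and STAT dimers bind the gamma-activated sequence (GAS). The induced proteins recognize viral RNA, block its translation, cut it, or trap virus particles and vacuoles, and some of them amplify or switch off the pathway itself. In kidney, tubular, endothelial and resident myeloid cells are all able to mount this response.

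The promoters of the members that moved most clearly are shown first, because the ISRE and GAS are the sequences through which the pathway acts. RefSeq start sites on GRCm38.p6 gave windows of 300 bases, from 250 before to 50 after the start, for 29 of the 37 members. The 8 others were Usp18, Dhx58, Oas2, Mx1, Mx2, Rtp4, Parp14 and Iigp1. On both strands, a pair of GAAA tetramers with any 2 bases between them was searched as the ISRE core, and TTCNNNGAA as the GAS. Matches of the same or the other motif may overlap. The 6 members printed had the smallest adjusted p in any of the comparisons among those with a window. Each window is read 5′ to 3′ on the strand of the gene, and capitals mark the ISRE or GAS matches. The windows were chr17:78882523-78882822 on the minus strand for Eif2ak2, chr5:114922990-114923289 on the plus strand for Oasl1, chr11:88999153-88999452 on the plus strand for Trim25, chr12:26456403-26456702 on the minus strand for Rsad2, chr2:62646206-62646505 on the minus strand for Ifih1 and chr8:120736108-120736407 on the plus strand for the upstream of the 2 windows of Irf8.
Eif2ak2: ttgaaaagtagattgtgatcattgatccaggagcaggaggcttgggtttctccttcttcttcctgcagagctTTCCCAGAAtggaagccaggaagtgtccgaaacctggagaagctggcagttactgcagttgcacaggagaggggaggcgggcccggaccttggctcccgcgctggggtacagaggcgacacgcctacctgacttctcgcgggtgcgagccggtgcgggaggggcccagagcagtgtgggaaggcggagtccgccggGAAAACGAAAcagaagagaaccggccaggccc
Oasl1: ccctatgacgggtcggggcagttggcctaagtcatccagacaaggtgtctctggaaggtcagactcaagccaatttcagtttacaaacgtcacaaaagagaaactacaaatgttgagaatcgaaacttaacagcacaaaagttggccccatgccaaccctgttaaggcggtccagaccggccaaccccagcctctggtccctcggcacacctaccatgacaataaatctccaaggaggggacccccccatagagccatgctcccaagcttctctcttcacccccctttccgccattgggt
Trim25: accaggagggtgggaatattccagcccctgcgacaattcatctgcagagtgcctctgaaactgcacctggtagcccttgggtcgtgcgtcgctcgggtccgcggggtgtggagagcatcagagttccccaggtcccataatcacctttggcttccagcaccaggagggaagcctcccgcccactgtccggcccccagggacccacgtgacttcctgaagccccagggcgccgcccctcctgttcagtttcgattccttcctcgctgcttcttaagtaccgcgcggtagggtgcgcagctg
Rsad2: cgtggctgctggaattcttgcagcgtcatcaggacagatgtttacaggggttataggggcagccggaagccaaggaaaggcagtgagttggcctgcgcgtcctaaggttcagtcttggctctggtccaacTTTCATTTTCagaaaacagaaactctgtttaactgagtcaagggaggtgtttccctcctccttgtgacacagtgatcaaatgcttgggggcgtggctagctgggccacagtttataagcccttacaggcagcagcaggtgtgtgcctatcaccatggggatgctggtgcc
Ifih1: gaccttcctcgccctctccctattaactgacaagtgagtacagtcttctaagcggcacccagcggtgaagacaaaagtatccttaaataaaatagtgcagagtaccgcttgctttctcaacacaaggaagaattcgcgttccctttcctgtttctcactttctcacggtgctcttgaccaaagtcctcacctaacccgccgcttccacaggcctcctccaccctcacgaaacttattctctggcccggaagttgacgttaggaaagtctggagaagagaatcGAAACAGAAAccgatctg
Irf8: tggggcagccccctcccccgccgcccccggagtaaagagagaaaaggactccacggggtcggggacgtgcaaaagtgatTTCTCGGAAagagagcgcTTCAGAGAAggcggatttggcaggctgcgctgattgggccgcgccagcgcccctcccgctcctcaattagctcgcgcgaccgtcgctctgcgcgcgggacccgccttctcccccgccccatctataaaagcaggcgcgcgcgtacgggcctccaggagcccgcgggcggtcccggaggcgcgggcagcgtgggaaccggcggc

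Eif2ak2 held 1 ISRE match 18 bases after its start and 1 GAS match 178 bases before it. Ifih1 held 1 ISRE match 32 bases after its start, and Rsad2 held 1 on the opposite strand 120 bases before its start. The upstream window of Irf8 held 2 GAS matches, 171 and 153 bases before its start, and no ISRE match. Neither set of letters was found in the windows of Oasl1 or Trim25. Over the 29 members with a window, 18 (62.1%) held an ISRE match, against 3.99% of 27025 genes with a window. A GAS match was found in 11 members (37.9%), against 9.55% of all genes. Both were found in 7 members and neither in 7. Isg15 held the most ISRE matches, 3, at 78, 72 and 66 bases before its start. The median number of CpG dinucleotides per window was 7 in the members and 8 in all genes. A match is a description of the letters and not of binding, and no methylation or binding data were analysed here.

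The total count per library, with 1 transcript per gene, ran from 51007362 to 107969879. Levels are given as FPKM (fragments scaled to transcript length and to the library's mapped reads), a scale on which genes can be compared, and fold changes are fitted log2 differences of counts. IR libraries carried the kidney injury genes Havcr1 (Kim-1) and Lcn2 (NGAL) at a higher level in both genotypes, with log2 fold changes of 5.29 and 6.17 in WT mice and 6.26 and 9.12 in mice labelled Tet2-/- (adjusted p between 7.83e-05 and 0.0137, edgeR quasi-likelihood test with Benjamini-Hochberg adjustment). The Tet2 transcript went against the labels at baseline, where it was 9.15, 6.25 and 7.33 FPKM in WT and 9.24, 16.6 and 10.3 FPKM, higher without overlap, in kidneys labelled Tet2-/- (log2 difference 0.76, adjusted p = 0.319). After IR it was 9.34, 3.97 and 3.86 FPKM in WT and 2.64, 3.20 and 1.76 FPKM, lower without overlap, in kidneys labelled Tet2-/- (-1.28, adjusted p = 0.0689). Whether these counts fall in the deleted part of the gene was not tested, and the groups are therefore called labelled Tet2-/- here, or Tet2-/- IR and Tet2-/- baseline where a replicate is named. The endothelial markers summed to 6.56 FPKM in WT IR replicate 3, against 29.8 to 103 FPKM in the other libraries. Adipocyte markers summed to 34.6 FPKM in WT baseline replicate 3 and 48.7 FPKM in Tet2-/- IR replicate 3, against 0.139 to 8.29 FPKM in the other libraries.

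At baseline the family was expressed at low to moderate levels. In WT baseline kidneys, 5 members had a mean above 10 FPKM, 22 lay between 1 and 10 FPKM and 10 were below 1 FPKM, with a median of 2.40 FPKM. The highest was Ifitm3, a membrane protein that blocks virus entry, at 32.2 ± 9.33 FPKM (SD, n = 3). Ifit3, which binds foreign RNA with its partners, followed at 13.5 ± 2.36 FPKM, ahead of the virion tether Bst2 at 12.4 ± 0.952 FPKM, the vacuole GTPase Irgm1 at 11.7 ± 4.57 FPKM and Ifi35 at 10.2 ± 1.34 FPKM. The SDs of these 4 neighbours overlap, so their order is not resolved. Oas3, an enzyme that makes the 2-5A activator of RNase L, was the lowest at 0.0227 ± 0.00493 FPKM, and the dynamin-like GTPase Mx1 was next at 0.157 ± 0.0369 FPKM. Oas3 was covered by 1 to 58 counts per library, too few for a firm statement, and was not tested in the WT IR comparison.

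Across the 12 libraries, the median over members of the log2 ratio of FPKM + 0.1 to the WT baseline mean + 0.1 was -0.05, 0.04 and -0.08 in WT baseline and -0.13, 0.27 and -0.22 in baseline kidneys labelled Tet2-/-. It was -0.07, 0.21 and -0.25 in WT IR and 0.12, 1.03 and 0.69 in Tet2-/- IR. Over all genes with a mean of at least 1 FPKM across the 12 libraries, the same median ran from -0.10 to 0.01 at baseline, and was 0.09, 0.13 and -0.01 in WT IR and 0.14, 0.25 and 0.07 in Tet2-/- IR. In Tet2-/- IR replicate 1 the members' median was thus below that of all genes, and Tet2-/- IR replicates 2 and 3 had the 2 highest member medians. Tet2-/- IR replicate 2 was the highest of all 12 libraries for 19 members and the highest of its group for 28, and WT IR replicate 3 was the lowest of all 12 for 11 members. The same Tet2-/- IR replicate 2 had the highest summed macrophage markers, 249 FPKM, of which Lyz2 alone gave 120 FPKM. The part of these markers in the members' levels was not tested.

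**Figure D1:**
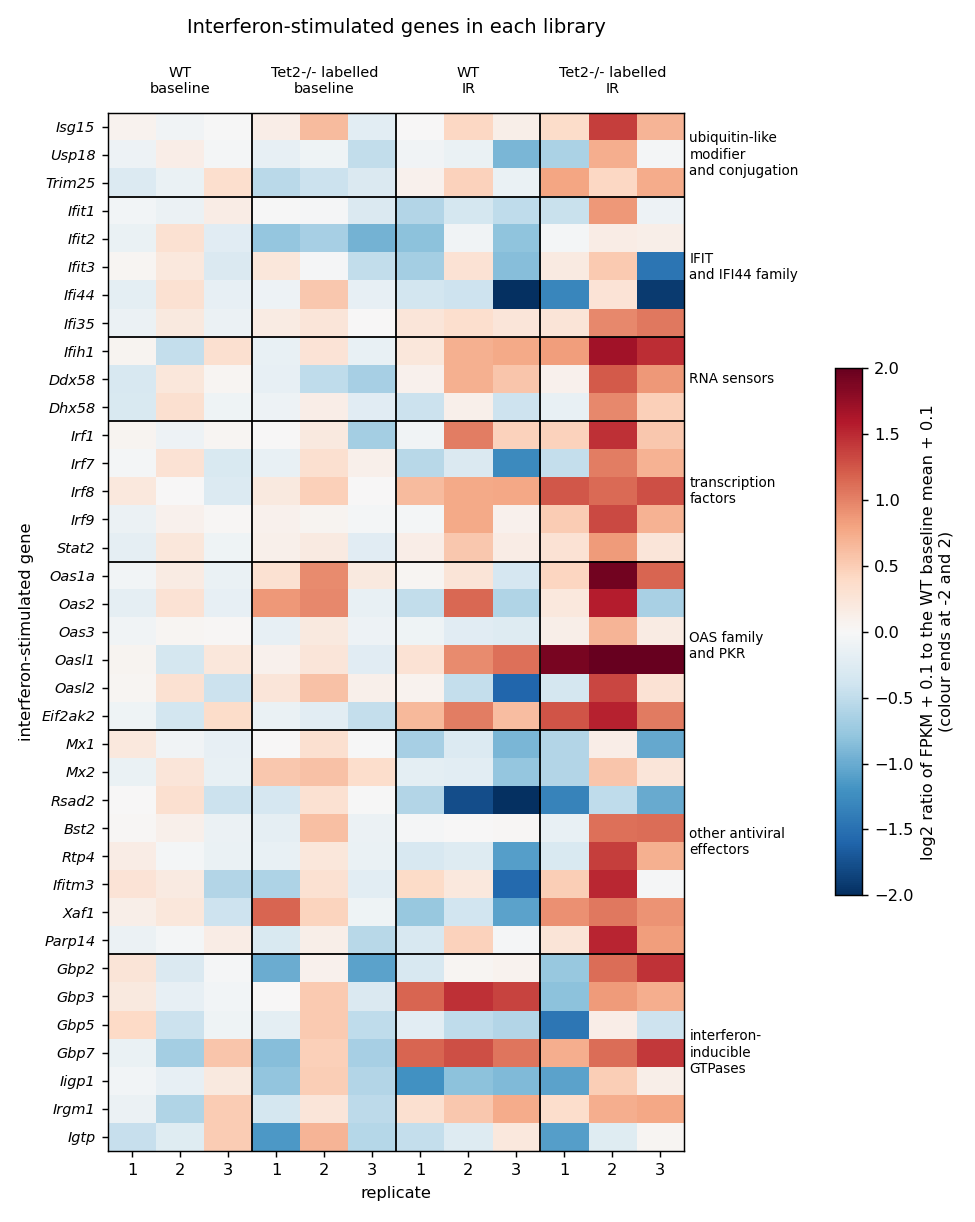
Heat map of the 37 members (rows, grouped by role) in the 12 libraries (columns); color gives the log2 ratio of FPKM + 0.1 to the WT baseline mean + 0.1 and ends at -2 and 2. Tet2-/- IR replicates 2 and 3 carry most of the red, with medians of 1.03 and 0.69, whereas replicate 1 has a median of 0.12.

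The first comparison asked how IR changed the members in WT kidneys. Only Gbp3 rose, 2.47-fold, among 36 members tested, and 0 fell at the thresholds used (an adjusted p below 0.05 together with a change of more than 1 on the log2 scale). DESeq2 called 4 members, 2 of them lower, beside 6.06% of all genes, and 12 had an unadjusted p under 0.05 in edgeR, beside 22.8% of all genes. The share of all 16043 genes called by edgeR in this comparison was 2.35%, so 1 of 36 members (2.78%) is near the background. The fit was higher for 16 members and lower for 20, with a median log2 fold change of -0.09 against -0.03 for all genes, and of -0.17 to -0.03 when 1 library was left out.

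Gbp3 is a guanylate-binding protein, one of a family of large GTPases that coat pathogen-containing vacuoles, and lies on chromosome 3 (142223460 to 142236176 on mm9, plus strand) in a cluster with Gbp2, Gbp5 and Gbp7. It was 2.77, 2.12 and 2.31 FPKM in WT baseline and 5.52, 6.76 and 6.32 FPKM in WT IR. The groups did not overlap, and the log2 fold change was 1.31 ± 0.18 (SE, n = 3 per group; adjusted p = 0.0179, edgeR quasi-likelihood test). In kidneys labelled Tet2-/- it was 2.42, 3.51 and 1.95 FPKM at baseline and 1.32, 4.39 and 4.03 FPKM after IR, where the groups overlapped and the log2 fold change was 0.04 (adjusted p = 0.945). The difference between the 2 IR effects, -1.23, did not pass (adjusted p = 0.150). The Gbp3 call in WT was lost when any 1 of 5 of the 6 libraries was left out, with WT IR replicate 1 the exception, and adjusted p then reached at most 0.0700. Guanylate-binding protein genes are alike in sequence, and whether reads that match several of them affected these values was not tested.

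Same-numbered baseline and IR libraries deviated together, and a fit with the replicate number as a block called 4 WT members in place of 1, against 6.16% of all genes. Gbp3 and its neighbor Gbp7 rose, and Rsad2 and Iigp1 fell. Rsad2 (viperin), an enzyme that makes a chain-terminating nucleotide, was 3.24, 4.06 and 2.36 FPKM in WT baseline and 2.12, 0.87 and 0.50 FPKM in WT IR. Each IR value was below each baseline value, with a log2 fold change of -1.55 without the block (adjusted p = 0.129) and -1.75 with it (adjusted p = 0.0280). Iigp1, an immunity-related GTPase of pathogen vacuoles, was 1.44, 1.33 and 1.73 FPKM at baseline and 0.59, 0.80 and 0.77 FPKM after IR, with a log2 fold change of -1.11 without the block (adjusted p = 0.0601) and -1.12 with it (adjusted p = 0.0356). Gbp7 was 1.45, 0.96 and 2.39 FPKM at baseline and 3.72, 4.05 and 3.45 FPKM after IR, with a log2 fold change of 1.15 (adjusted p = 0.104) and 1.26 with the block (adjusted p = 0.0390).

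Whether groups overlapped was also counted over all genes on counts scaled by library size and TMM factor (TMM-scaled counts), the scale of the test, and separately on FPKM. On TMM-scaled counts, all 3 WT IR libraries were below all 3 WT baseline libraries for 10 members, namely Rsad2, Ifit1, Iigp1, Mx1, Mx2, Usp18, Ifi44, Irf7, Xaf1 and Rtp4, and above for 4, namely Gbp3, Gbp7, Irf8 and Eif2ak2. Over all genes tested, 14.5% lay below and 14.9% above in this way. On FPKM, 7 members lay below, as Usp18, Irf7 and Xaf1 then overlapped, and 6 above, with Oasl1 and Ifi35 added, beside 10.4% and 18.9% of all genes. Apart from Gbp3, none of these passed the main edgeR test, whereas DESeq2 without the block also called Gbp7, Iigp1 and Rsad2. Of the 8 antiviral effectors outside the families, 7 had a lower fitted level, and of the 5 IFIT and IFI44 members 4 did. Ifi44, a cytoplasmic antiviral protein, was 1.93, 2.74 and 1.97 FPKM at baseline and 1.70, 1.63 and 0.39 FPKM after IR (log2 fold change -0.93, adjusted p = 0.302). The lowest value was again in WT IR replicate 3, the library with few endothelial transcripts.

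The second comparison asked the same question in kidneys labelled Tet2-/-. Eif2ak2, Oasl1 and Ifih1 rose and Rsad2 fell, 4 of 37 members tested (10.8%). Of all 16374 genes, 24.3% were called in this comparison, so the share among the members was below the background. The fitted level was higher for 28 members and lower for 9, with a median log2 fold change of 0.40 against 0.04 for all genes. That median was 0.14 without Tet2-/- IR replicate 2, 0.62 without Tet2-/- IR replicate 1 and 0.60 without Tet2-/- baseline replicate 2.

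Oasl1, an OAS-like protein with no synthetase activity that restrains Irf7 translation, moved the most. It was 0.53, 0.60 and 0.41 FPKM at baseline and 2.12, 3.81 and 7.62 FPKM after IR. The IR libraries lay above every other library of the study, and they spread over a wide range. The rise was 7.49-fold, with a log2 fold change of 2.90 ± 0.49 (SE; adjusted p = 0.00308, edgeR quasi-likelihood test). In WT kidneys Oasl1 was 0.52, 0.37 and 0.60 FPKM at baseline and 0.63, 1.04 and 1.18 FPKM after IR, a log2 fold change of 0.89 that did not pass (adjusted p = 0.198).

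Eif2ak2 encodes PKR, the kinase that senses double-stranded RNA and stops translation by phosphorylating eIF2α. It was 2.27, 2.14 and 1.78 FPKM at baseline and 6.10, 7.49 and 5.25 FPKM after IR. The groups were well apart, and the log2 fold change was 1.34 ± 0.15 (adjusted p = 0.000547, edgeR quasi-likelihood test). In WT it went from 2.34, 1.92 and 3.25 FPKM to 3.99, 5.17 and 3.89 FPKM, without overlap, and a log2 fold change of 0.73 (adjusted p = 0.132). Of the promoters printed above, that of Eif2ak2 is the only one with both an ISRE and a GAS match.

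Ifih1 encodes MDA5, a sensor of long double-stranded RNA. It was 0.48, 0.67 and 0.47 FPKM at baseline and 1.03, 1.94 and 1.68 FPKM after IR. Each IR library exceeded each baseline library, with a log2 fold change of 1.26 ± 0.28 (adjusted p = 0.00996, edgeR quasi-likelihood test). In WT it was 0.56, 0.36 and 0.69 FPKM at baseline and 0.64, 0.94 and 0.98 FPKM after IR, with overlap (log2 fold change 0.61, adjusted p = 0.316). Its relative Ddx58 (RIG-I), a sensor of 5′-triphosphate RNA, had a log2 fold change of 0.999 (adjusted p = 0.0206), just under the fold threshold, and the regulator Dhx58 (LGP2) one of 0.38 (adjusted p = 0.417).

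Rsad2 was the member that fell. It was 2.54, 3.99 and 3.20 FPKM in baseline kidneys labelled Tet2-/- and 1.21, 2.22 and 1.55 FPKM after IR, without overlap. The log2 fold change was -1.23 ± 0.26 (adjusted p = 0.00745, edgeR quasi-likelihood test). The WT value of -1.55 given above had the same sign, and the interaction was 0.35 (adjusted p = 0.734). The Rsad2 call in kidneys labelled Tet2-/- was lost when libraries were scaled by their sizes alone.

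With the replicate block, 7 members were called, 4 of them higher, in place of 4, against 25.7% of all genes. Gbp7, Mx1 and Ifi44 joined the 4 above. Gbp7 was 0.84, 2.27 and 0.97 FPKM at baseline and 2.71, 3.57 and 4.43 FPKM after IR (log2 fold change 1.14, adjusted p = 0.0507; with the block 1.25, adjusted p = 0.0142). Mx1 was 0.16, 0.22 and 0.16 FPKM at baseline and 0.07, 0.18 and 0.03 FPKM after IR (-1.23, adjusted p = 0.131; with the block -1.47, adjusted p = 0.0451). Ifi44 was 2.06, 3.28 and 1.97 FPKM at baseline and 0.83, 2.68 and 0.52 FPKM after IR (-1.16, adjusted p = 0.120; with the block -1.42, adjusted p = 0.00912). For both of these lower members, Tet2-/- IR replicate 2 was the high value of its group, and replicate 2 was also the high one at baseline.

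At adjusted p under 0.05 with no fold threshold, 10 members passed in kidneys labelled Tet2-/-, against 43.2% of all genes. The 6 added were the E3 ligase Trim25 (log2 fold change 0.83), Ddx58 (0.999), the ADP-ribosyltransferase Parp14 (0.98), Ifit2 (0.65), and the transcription factors Irf8 (0.75) and Irf9 (0.60). Trim25, which activates RIG-I by ubiquitination, was 6.74, 7.31 and 8.05 FPKM at baseline and 17.1, 13.1 and 16.6 FPKM after IR. Irf8, a factor of myeloid cells, was 3.51, 4.31 and 3.08 FPKM at baseline and 7.39, 6.78 and 7.60 FPKM after IR. In both genes Tet2-/- IR replicate 2 was the lowest of its group, unlike in most members. Among the members that did not pass, 5 are given here as examples chosen after their values were seen: Isg15 had a log2 fold change of 0.39 (adjusted p = 0.373), Ifit1 0.06 (0.897), Irf7 0.18 (0.705), Usp18 0.13 (0.812) and Oasl2 0.00 (0.995).

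**Figure D2:**
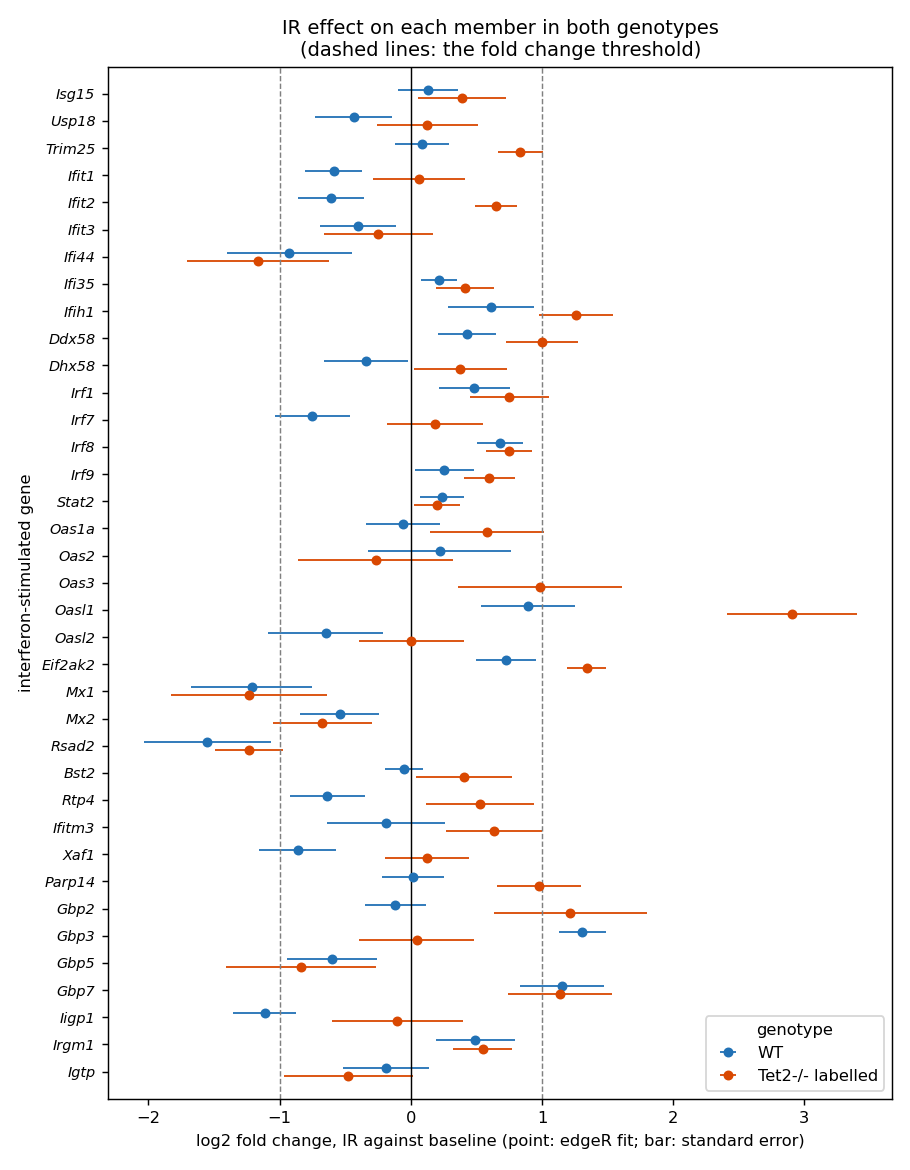
Log2 fold change of IR against baseline for each member in WT (blue) and in kidneys labelled Tet2-/- (orange); points are edgeR fits, bars are standard errors, dashed lines mark 1 and -1, and Oas3 has no WT point. Oasl1 lies farthest to the right, at 2.90 in kidneys labelled Tet2-/- against 0.89 in WT, whereas Rsad2 and Mx1 lie left of -1 in both.

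On TMM-scaled counts, all 3 Tet2-/- IR libraries were above all 3 baseline libraries for 10 members, namely Oasl1, Gbp7, Irf8, Trim25, Irf1, Ifit2, Irf9, Ifih1, Ddx58 and Eif2ak2, and below for Rsad2, Mx2 and Mx1. Over all genes the shares were 29.5% and 27.2%. On FPKM, 14 members lay above, with Ifi35, Stat2, Parp14 and Irgm1 added, and only Rsad2 below, since Mx1 and Mx2 overlapped, beside 40.4% and 17.9% of all genes. Leaving out Tet2-/- IR replicate 1 or replicate 2 raised the members called from 4 to 7 in each case, 18.9% of the members beside 22.0% and 24.3% of all genes in those fits. With scaling by library sizes alone, 7 members were called higher and 0 lower, and the median of all genes moved from 0.04 to 0.27, a shift that applies to every direction given for this comparison. Relative to it, the members' median of 0.63 was still higher. Of all genes, 17.5% were then called higher (2867 genes) and 8.57% lower (1404), against 2088 and 1897 genes with TMM.

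In the same libraries the neutrophil markers summed to 74.8 to 132 FPKM, against 1.90 to 3.17 FPKM at baseline, and 7 of 8 tested were called higher. The macrophage markers summed to 66.1 to 249 FPKM, against 40.9 to 83.4 FPKM, with 3 of 12 called higher and 1 lower. The proximal tubule markers summed to 648 to 866 FPKM, against 2299 to 2976 FPKM, and 4 of 8 were lower. In WT IR, neutrophil markers summed to 4.13 to 9.44 FPKM, with Mpo and Elane at 0 in all 3 libraries, and macrophage markers to 35.7 to 78.4 FPKM. T and NK cell markers summed to 3.75 FPKM or less in every library. In whole tissue, a change in the share of a cell type and a change in RNA per cell cannot be told apart, and the part of these markers in the members' values was not tested.

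The third comparison was between genotypes without an operation. No member was called among 37 (edgeR quasi-likelihood test), and 0 were called by DESeq2, beside 1.99% of all genes, with 4 at an unadjusted p under 0.05, namely Ifit2, Oas1a, Oas2 and Mx2. Of all 16108 genes, 0.0124% were called and 11.8% had an unadjusted p under 0.05. The median log2 fold change of the members was 0.10 against 0.00 for all genes, and it turned to -0.06 without Tet2-/- baseline replicate 2 and rose to 0.18 and 0.19 without Tet2-/- baseline replicates 1 and 3. Ifit2 was lower in the baseline libraries labelled Tet2-/- without overlap, and Oas1a and Mx2 were higher without overlap, 3 members beside shares of 10.8% (lower) and 7.97% (higher) over all genes on TMM-scaled counts. On FPKM Trim25 was lower without overlap as well, where the shares were 16.5% and 3.05%. The largest fitted differences were 0.82 for Oas2 (adjusted p = 0.423) and -0.74 for Ifit2 (adjusted p = 0.243).

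The fourth comparison was between genotypes after IR. By edgeR, Xaf1 and Oasl1 were higher in kidneys labelled Tet2-/-, 2 of 37 members (5.41%). Of all 16210 genes, 6.16% were called by edgeR, and 2.30% were called higher. In either direction, 12 members had an unadjusted p under 0.05 in edgeR, beside 28.8% of all genes. DESeq2 called 6 members higher (Xaf1, Oasl1, Oas1a, Oas3, Irf7 and Rtp4), beside 10.2% of all genes, and 0 were lower by edgeR or DESeq2. The fitted level was higher for 32 members and lower for 5, with a median log2 difference of 0.48 against 0.04 for all genes, and 0.33 without Tet2-/- IR replicate 2. Scaling by library sizes alone moved the median of all genes to 0.14 and that of the members to 0.59. The 5 lower fits were -1.04 for Gbp3, -0.33 for Igtp, -0.15 for Gbp7, -0.13 for Gbp5 and -0.03 for Irgm1, none of which passed (adjusted p = 0.154 for Gbp3 and at least 0.576 for the others), and the other 2 GTPases, Iigp1 and Gbp2, were at 0.92 and 0.85.

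Xaf1, a pro-apoptotic partner that blocks the caspase inhibitor XIAP, was 0.60, 0.81 and 0.46 FPKM in WT IR and 2.14, 2.36 and 2.10 FPKM in Tet2-/- IR. Within each group the values were close and between them far apart, a 3.32-fold difference (log2 1.73 ± 0.25; adjusted p = 0.0144, edgeR quasi-likelihood test). At baseline Xaf1 was 1.18, 1.28 and 0.78 FPKM in WT and 2.56, 1.51 and 1.02 FPKM in kidneys labelled Tet2-/-. From baseline to IR its log2 fold change was -0.86 in WT (adjusted p = 0.151) and 0.13 in kidneys labelled Tet2-/- (adjusted p = 0.773), and the interaction of 1.02 did not pass (adjusted p = 0.166). The call was lost without WT IR replicate 1 (adjusted p = 0.0597).

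Oasl1 had a log2 difference of 2.16 ± 0.54 after IR (adjusted p = 0.0496, edgeR quasi-likelihood test), at the edge of the threshold. The call was lost when any 1 of the 6 libraries was left out, with an adjusted p of up to 0.149. On TMM-scaled counts, the 3 Tet2-/- IR libraries exceeded the 3 WT IR libraries for 7 members, namely Oasl1, Oas1a, Oas3, Irf8, Ifit2, Xaf1 and Eif2ak2, and lay below them for Gbp3, beside 17.6% and 18.5% of all genes. On FPKM Ifih1 was added above, beside 22.0% and 14.6%. Oas1a, which makes 2-5A, was 0.50, 0.60 and 0.36 FPKM in WT IR and 0.68, 2.12 and 1.20 FPKM in Tet2-/- IR (log2 difference 1.35, adjusted p = 0.0925). Irf7, the amplifying transcription factor of the type I response, was 2.13, 2.59 and 1.25 FPKM against 2.25, 6.59 and 5.23 FPKM (1.15, adjusted p = 0.123), and the receptor chaperone Rtp4 was 1.05, 1.10 and 0.57 FPKM against 1.06, 3.65 and 2.25 FPKM (1.26, adjusted p = 0.128). In both, Tet2-/- IR replicate 1 lay within the range of the WT IR libraries. After IR, 6 of 8 neutrophil markers and 2 of 12 macrophage markers tested were called higher in kidneys labelled Tet2-/-, and 4 of 8 proximal tubule markers lower. The 7 endothelial markers had a median log2 difference of 0.90 with 0 called by edgeR, and the part of these in the difference was not tested.

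**Figure D3:**
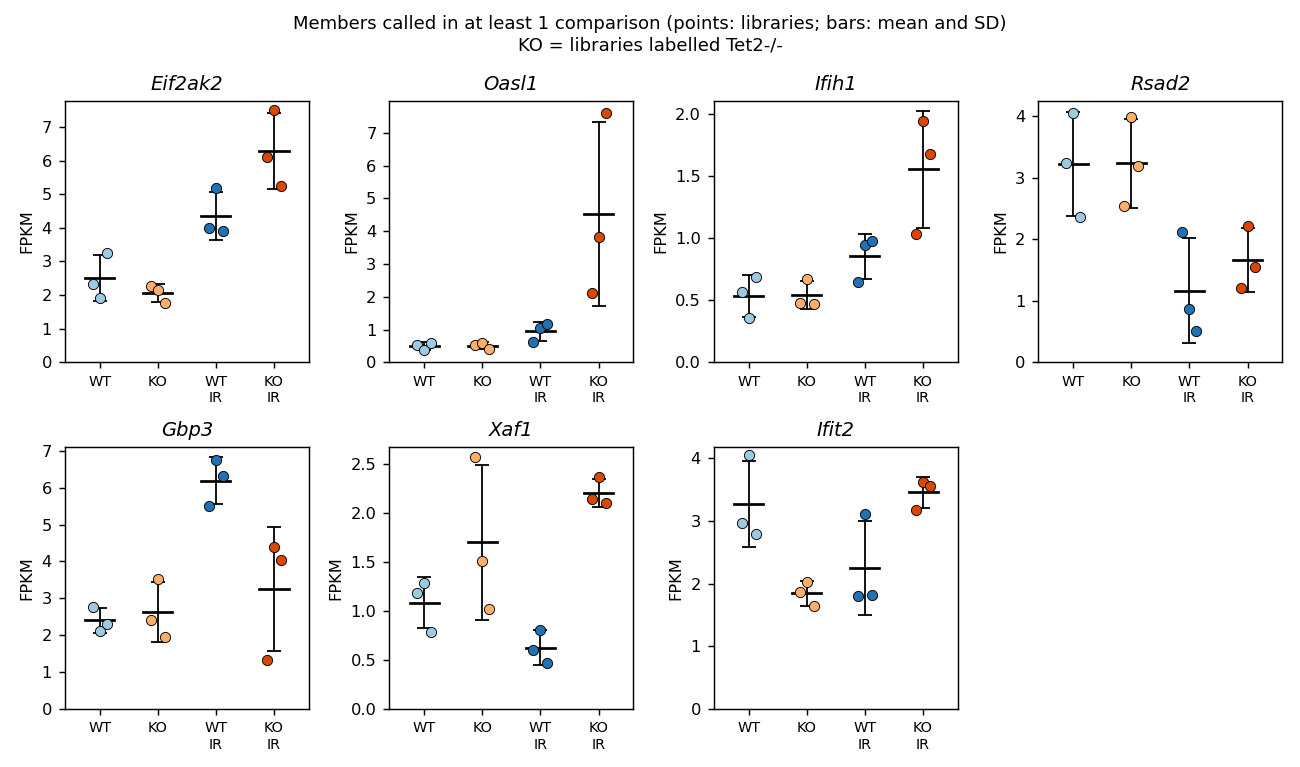
FPKM per library of the members called in at least 1 comparison (points: libraries; bars: mean and SD, n = 3). Oasl1 spreads from 2.12 to 7.62 in Tet2-/- IR, Xaf1 stays between 2.10 and 2.36 there, and Gbp3 is highest in WT IR, at 5.52 to 6.76.

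The last comparison tested whether the IR effect differed between genotypes. Only Ifit2 passed, 1 of 37 members (2.70%), where 9.19% of all 16755 genes did at an adjusted p under 0.05. The interaction was above 0 for 31 members and below 0 for 6, with a median of 0.59 against 0.10 for all genes. Without Tet2-/- IR replicate 2 the members' median was 0.14, without WT IR replicate 3 it was 0.38, and with library sizes alone it was 0.74 against 0.24 for all genes.

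Ifit2 encodes an RNA-binding protein of the IFIT family that inhibits translation, and lies on chromosome 19 (34625184 to 34651024 on mm9, plus strand) next to Ifit1 and Ifit3. It was 2.97, 4.05 and 2.78 FPKM in WT baseline and 1.81, 3.12 and 1.82 FPKM in WT IR. In kidneys labelled Tet2-/- it was 1.86, 2.03 and 1.64 FPKM at baseline and 3.18, 3.63 and 3.56 FPKM after IR. The WT groups overlapped and the others did not: the log2 fold changes were -0.61 in WT (adjusted p = 0.212) and 0.65 in kidneys labelled Tet2-/- (adjusted p = 0.0137). The interaction was 1.29 ± 0.30 (adjusted p = 0.0254, edgeR quasi-likelihood test). The call was lost without WT baseline replicate 2, Tet2-/- baseline replicate 1 or 3, or WT IR replicate 1 or 3, with adjusted p up to 0.0756. Its neighbors had interactions of 0.68 (Ifit1, adjusted p = 0.307) and 0.19 (Ifit3, adjusted p = 0.862). Oasl1 had an interaction of 2.05 (adjusted p = 0.0648) and was not called.

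**Figure D4:**
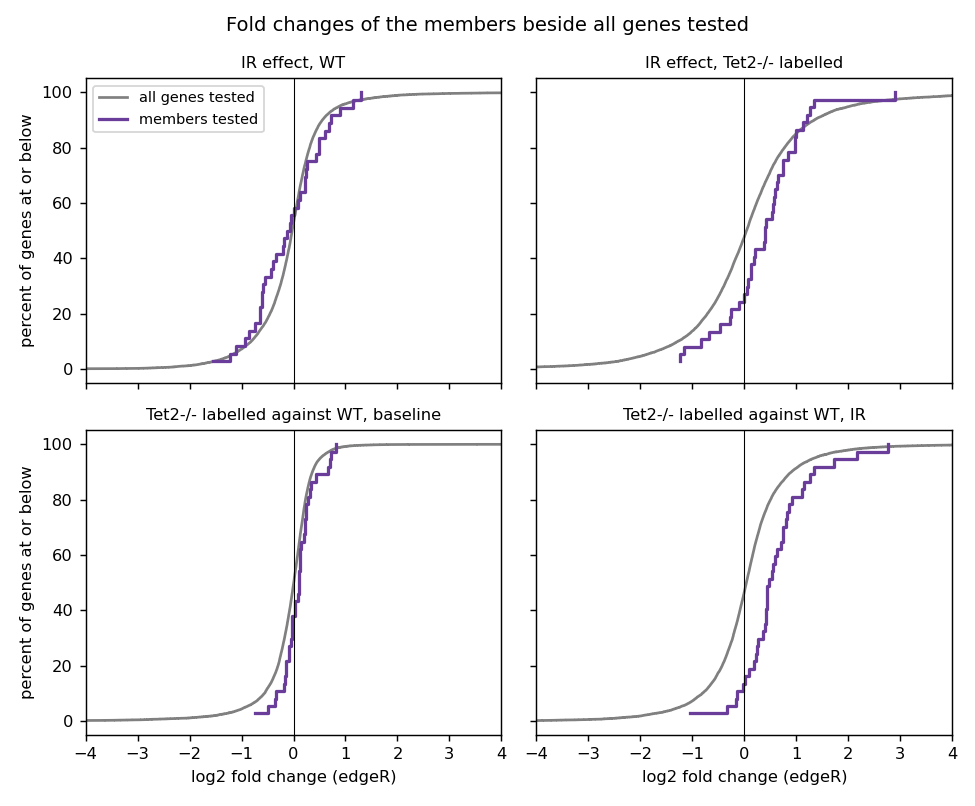
Cumulative distribution of log2 fold changes for the members and for all genes tested, with a panel for each comparison. The members lie to the right of all genes after IR in kidneys labelled Tet2-/- (median 0.40 against 0.04) and between genotypes after IR (0.48 against 0.04), and close to all genes in WT (-0.09 against -0.03).

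By role, the 6 OAS and PKR members had medians of 0.78 for IR in kidneys labelled Tet2-/- and 1.23 between genotypes after IR, with 2 and 1 called. Over all genes the median was 0.04 in both comparisons, and 24.3% and 6.16% were called. The 5 transcription factors (Irf1, Irf7, Irf8, Irf9 and Stat2) all had a higher fitted level after IR in kidneys labelled Tet2-/-, by 0.18 to 0.75, and none was called. The 3 RNA sensors had a median of 0.999 there, with Ifih1 called. The 3 genes of the ISG15 system (Isg15, its protease Usp18 and Trim25) ran from 0.13 to 0.83. The 5 IFIT and IFI44 members ran from -1.16 for Ifi44 to 0.65 for Ifit2, and the 8 other effectors from -1.23 for Mx1 to 0.98 for Parp14. The 7 GTPases had a median of 0.04 for IR in kidneys labelled Tet2-/-, from -0.84 for Gbp5 to 1.22 for Gbp2 (adjusted p = 0.129), and of -0.13 between genotypes after IR, from -1.04 for Gbp3 to 0.92 for Iigp1. Gbp2 was 1.19, 2.63 and 1.12 FPKM at baseline and 1.41, 5.42 and 6.83 FPKM after IR in kidneys labelled Tet2-/-, so that the higher IR values were in 2 of the 3 libraries.

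The ligands that start the pathway were scarcely sampled. Of 21 interferon genes, 11 had no count in any library, and the highest value in a library was 6 counts, for Ifng, which T and NK cells make. The highest FPKM of a ligand was 0.06. None could be tested, so ligand changes were not detectable at this depth. Ifnb1 was covered by 2 counts, in a single library.

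The receptors were well covered. After IR in kidneys labelled Tet2-/-, 3 of 6 rose: Ifngr1 and Ifngr2, the chains of the interferon-γ receptor, and Ifnlr1, of the interferon-λ receptor. The share of all genes called there, in either direction, was 24.3%, which is the background of each pathway count in this comparison. Ifngr2 was 5.05, 5.14 and 5.12 FPKM at baseline and 20.7, 27.6 and 22.4 FPKM after IR (log2 fold change 1.94 ± 0.12, adjusted p = 9.41e-05, edgeR quasi-likelihood test). In WT it was 5.42, 6.95 and 6.45 FPKM and then 8.46, 16.0 and 11.4 FPKM (0.87, adjusted p = 0.0991), and the interaction of 1.11 passed (adjusted p = 0.0303). Ifngr1 was 10.1, 12.4 and 10.5 FPKM at baseline and 32.9, 24.3 and 34.8 FPKM after IR in kidneys labelled Tet2-/- (1.24, adjusted p = 0.00222). Ifnlr1 had a log2 fold change of 1.23 (adjusted p = 0.00713), whereas Ifnar1 and Ifnar2, the type I receptor, were at 0.57 (adjusted p = 0.00988) and -0.10 (adjusted p = 0.574). Neither was called, Ifnar1 for its fold change alone. In WT, 0 receptors were called by edgeR or DESeq2, and 2 had an unadjusted p under 0.05. For WT the shares over all genes were 2.35%, 6.06% and 22.8%.

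None of the 3 JAK family kinase genes that relay the receptor signal (Jak1, Jak2 and Tyk2) was called in any of the 5 main comparisons by edgeR or DESeq2, and 1, Jak1, had an unadjusted p under 0.05, after IR in kidneys labelled Tet2-/-. Jak1 was 11.8, 16.0 and 15.1 FPKM at baseline and 27.3, 33.3 and 26.0 FPKM after IR in these kidneys, without overlap, and its log2 fold change of 0.75 ± 0.16 (SE, adjusted p = 0.00732, edgeR quasi-likelihood test) lay under the fold threshold. Of 13 sensing and relay genes tested, Tmem173 (STING, the adaptor for cytosolic DNA) and Mavs (the adaptor of RIG-I and MDA5) rose after IR in kidneys labelled Tet2-/-, and Irf5, a factor of myeloid cells, fell. Tmem173 was 0.87, 1.31 and 0.71 FPKM at baseline and 7.67, 13.7 and 3.10 FPKM after IR, with a log2 fold change of 2.78 (adjusted p = 0.00355). Mavs was 18.9, 18.5 and 17.3 FPKM and then 54.0, 45.1 and 43.9 FPKM (1.13, adjusted p = 0.000702), and Irf5 changed by -1.40 (adjusted p = 0.00787). In WT, 0 of the 13 were called by edgeR or DESeq2 and 2 had an unadjusted p under 0.05, and the log2 fold changes of these 3 genes were 1.08, 0.63 and -0.46.

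Of 7 feedback genes, Socs1 and Socs3, inhibitors of JAK signaling, rose after IR in kidneys labelled Tet2-/-. In WT, 0 were called by edgeR and 1, Socs3, by DESeq2, with 2 at an unadjusted p under 0.05. Socs3, which cytokines of the IL-6 family also induce, was 0.66, 1.08 and 0.50 FPKM at baseline and 22.5, 26.1 and 14.0 FPKM after IR (log2 fold change 4.51, adjusted p = 0.000141, edgeR quasi-likelihood test). In WT it was 0.93, 0.82 and 0.74 FPKM at baseline and 1.19, 12.8 and 5.61 FPKM after IR (2.91, adjusted p = 0.0856). Socs1 was 0.17, 0.23 and 0.22 FPKM and then 0.66, 0.98 and 0.42 FPKM in kidneys labelled Tet2-/- (1.43, adjusted p = 0.0201; called in 3 of 6 fits that left out 1 library), with a WT value of -0.63 and an interaction of 2.10 (adjusted p = 0.0466), which passed in 2 of 12 fits that left out 1 library.

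A further 54 interferon-stimulated genes outside the 37 were read from the same fits. Of 52 tested after IR in kidneys labelled Tet2-/-, 7 rose (Isg20, Tor3a, Cxcl10, Gbp8, Slfn2, Lgals3bp and Ube2l6) and 3 fell (Cxcl9, Cxcl11 and Ifi203), together 19.2% beside 24.3% of all genes, with a median log2 fold change of 0.12 against 0.04 for all genes. When 1 library was left out, the calls of Isg20, Tor3a and Slfn2 were kept in 6 of 6 fits and that of Lgals3bp in 5, but those of Gbp8 and Ifi203 in 2 and that of Ube2l6 in 1. In WT, 0 rose and 1 fell by edgeR, beside 2.35% of all genes called, with a median of -0.37 against -0.03 for all genes. There 13 had an unadjusted p under 0.05, beside 22.8%, and DESeq2 called 5 (Isg20, Cxcl10, Ifi203, Ifi27l2a and Cxcl9), beside 6.06%. Between genotypes after IR, the median log2 difference of the 51 tested was 0.46 against 0.04 for all genes. The 3 CXCR3 ligands, which attract T cells, went in different directions. Cxcl9, induced mostly by interferon-γ, was 0.117, 0.467 and 0.169 FPKM at baseline and 0.019, 0.011 and 0.033 FPKM after IR in kidneys labelled Tet2-/- (-3.87, adjusted p = 0.00431), and 0.441, 0.495 and 0.302 FPKM and then 0.055, 0.092 and 0.033 FPKM in WT (-2.83, adjusted p = 0.0222), where the call held in 1 of 6 fits that left out 1 library. Cxcl10 was 1.01, 1.79 and 0.58 FPKM and then 3.51, 9.87 and 2.06 FPKM (1.88, adjusted p = 0.0395), a call kept in 2 of 6 fits that left out 1 library and lost in limma on log2(FPKM + 1), with 1.73 in WT (adjusted p = 0.0758). Cxcl11 changed by -1.89 (adjusted p = 0.0241; called in 4 of 6 such fits and in neither limma fit) and by -0.10 in WT (adjusted p = 0.930). Of 8 T and NK cell markers tested, 3 were called lower after IR in kidneys labelled Tet2-/-, where their sums overlapped (1.33 to 3.75 FPKM at baseline and 0.261 to 1.39 FPKM after IR), and 0 by edgeR in WT (1.86 to 2.58 and 0.322 to 0.994 FPKM). Their part in these values was not tested.

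Slfn2, a Schlafen protein of leukocytes, was the only 1 of 51 tested to differ between genotypes after IR by edgeR, whereas DESeq2 also called Gbp8 and Cxcl11, beside 6.16% and 10.2% of all genes. It was 2.003, 2.35 and 1.35 FPKM in WT IR and 5.64, 14.8 and 6.52 FPKM in Tet2-/- IR (log2 difference 2.13, adjusted p = 0.0209, edgeR quasi-likelihood test), against 2.98, 2.07 and 2.004 FPKM and 1.77, 2.98 and 1.78 FPKM at baseline. The call was lost without WT IR replicate 1 or 3, with an adjusted p of up to 0.0709. The interaction was 2.17 (adjusted p = 0.0222). Tet2-/- IR replicate 2, the library with the highest summed macrophage markers, had the highest value, and its part in the result was not tested.

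**Figure D5:**
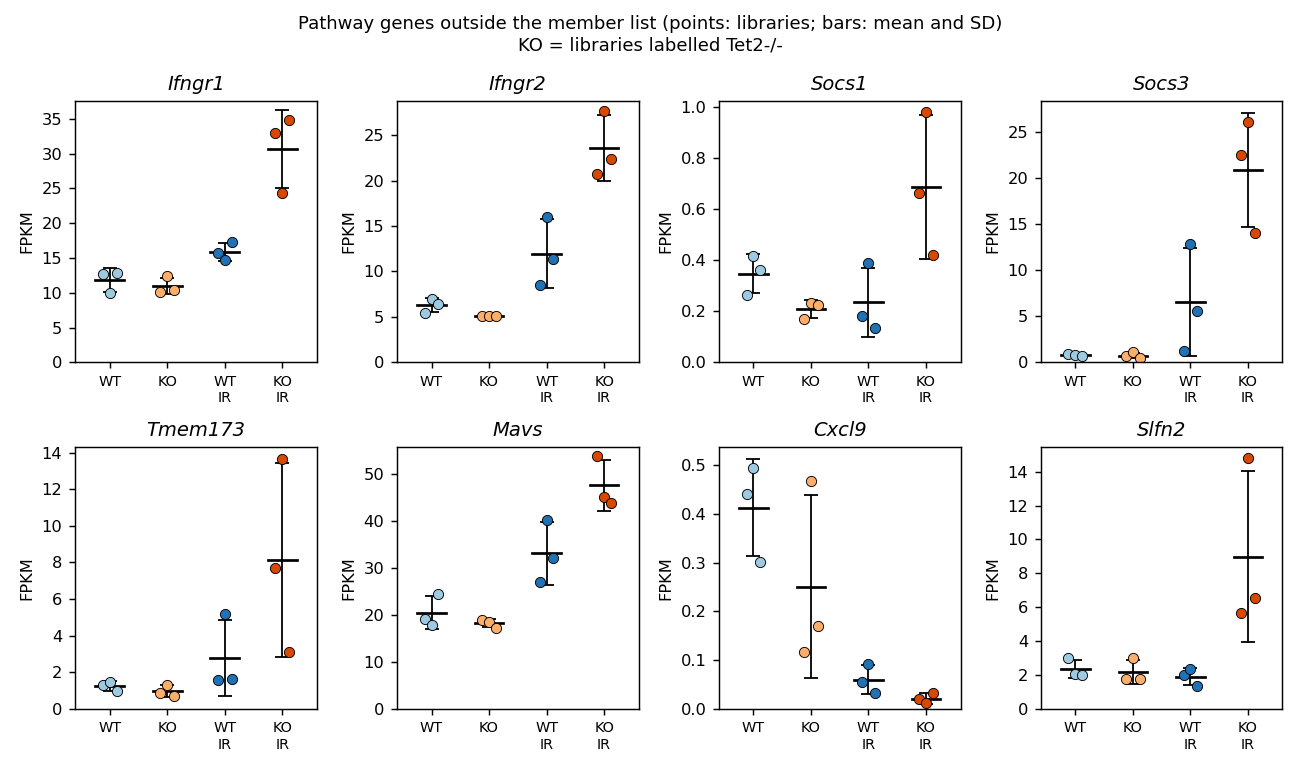
FPKM per library of 8 genes of the pathway outside the 37 members (points: libraries; bars: mean and SD, n = 3). Ifngr1, Ifngr2, Socs3, Mavs and Slfn2 are highest in the 3 Tet2-/- IR libraries, whereas Cxcl9 is lowest after IR in both genotypes.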

How the data were processed

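Whole-kidney RNA-seq libraries of 12 male mice were analysed, 3 in each of 4 groups. Per the labels and methods, the authors used STAR (mm9) for alignment and HOMER for counting over RefSeq transcripts, and versions are not given in the sources used here. They deposited expected counts without normalization, in steps of 0.5 (36.0% of values not whole), and FPKM of the same 34600 transcripts. The design had assumed whole counts, so expected counts were rounded. The analysis kept 1 transcript (the highest total) for each of 24421 symbols, 5569 of which had several. The 37 members and the pathway and marker lists were chosen with earlier results of these data known. A result for 1 pathway gene is not reported here.

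Counts were tested in R 4.3.3 with edgeR 4.0.16 (TMM, filterByExpr, glmQLFit and glmQLFTest, Benjamini-Hochberg over all genes tested). Each comparison of 2 groups used its own 6 libraries, and the interaction used all 12. A call needed an adjusted p below 0.05 together with a change of more than 1 on the log2 scale, or the adjusted p alone for the interaction. The SE is the log2 fold change divided by the root of F. FPKM levels and medians were computed from the deposited FPKM with a pseudocount of 0.1 where logs were taken. The fitting script was tested on simulated data. The alternatives were DESeq2 1.42.0, limma 3.58.1 on log2(FPKM + 1) and log2(FPKM + 0.1), other scalings, filters and row choices, a replicate block and leaving out each library.

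Replicate numbers come from the sample titles. The deviations of same-numbered libraries from their group means correlated at 0.345 to 0.349 in WT (baseline with IR) and at 0.120, 0.350 and 0.204 in kidneys labelled Tet2-/-, so the numbers were taken to pair these libraries. The sources used here do not say that same-numbered mice shared a litter or day.

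Values in every library are given for each member called in at least 1 comparison. Members called under the replicate block, and others chosen after their values were seen to show an overlap or a library that differed, are also given by library. Promoters were printed for the 6 members with the smallest adjusted p among those with a RefSeq window. Transcript coordinates are those of the deposited tables on mm9 and promoter coordinates are on GRCm38.p6. No source says that the mice of a group were from separate litters, and p-values measure the spread between these libraries. Markers whose summed FPKM is quoted came from lists for 9 cell types. Lists with no other mention in the text (B cell, dendritic cell and red blood cell) had summed levels of 0.271 to 2.06, 0.485 to 2.66 and 30.5 to 251 FPKM over the 12 libraries.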

Additional observations from a re-analysis of the deposited data

Results flagged for a closer look

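The interaction term found 6 of the named genes to have an IR effect in kidneys labelled Tet2-/- that differed from the IR effect in WT kidneys, all at adjusted p under 0.05 in the edgeR quasi-likelihood test over 12 libraries. The difference between the log2 fold changes was 1.29 for Ifit2, the only member among them, 1.11 for the interferon-γ receptor chain Ifngr2, 2.10 for the JAK inhibitor Socs1, 2.17 for the Schlafen gene Slfn2 and 2.99 for the injury gene Lcn2. It was -2.001 for Tet2, whose transcript fell after IR in kidneys labelled Tet2-/- (log2 fold change -2.52, adjusted p = 0.000513) and changed by -0.48 in WT (adjusted p = 0.440). The call was kept in 7 of 12 fits that left out 1 library for Ifit2, 5 for Ifngr2, 2 for Socs1, 8 for Slfn2, 2 for Lcn2 and 8 for Tet2. Of all 16755 genes, 9.19% passed this interaction test. By list, 1 of 37 members passed, 1 of 6 receptors, 1 of 7 feedback genes and 1 of 52 further interferon-stimulated genes. None of the 3 JAK family kinase genes or 14 sensing and relay genes passed. Lcn2 and Tet2 are outside these lists.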

How the results depend on the processing

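Oasl1 and Eif2ak2, for IR in kidneys labelled Tet2-/-, kept their direction and their call under each of the 10 alternatives and in each of the 6 fits without 1 library, with log2 fold changes of 1.74 to 3.24 and 1.24 to 1.57. Ifih1 lost its call in limma on log2(FPKM + 1), and Rsad2 in both limma fits and with library sizes alone. The share of all genes called in the same fit stands in brackets after each count of members. For IR in kidneys labelled Tet2-/-, 4 members were called in the main fit (24.3%), 2 in limma on log2(FPKM + 1) (13.8%), 7 in limma on log2(FPKM + 0.1) (23.4%), with library sizes alone (26.1%), in a fit of all 12 libraries (24.9%) and with the replicate block (25.7%), and 10 with no fold threshold (43.2%). Leaving out 1 library gave 4 to 7 (19.4% to 25.6%). For IR in WT, 1 was called in the main fit (2.35%), 4 by DESeq2 (6.06%) and with the replicate block (6.16%), 2 with a minimum mean of 1 FPKM and with all rows of a symbol summed (2.36% in both), and 0 in the fit of all 12 libraries (3.81%), with 0 to 2 when 1 library was left out (0.541% to 3.42%). Between genotypes after IR, 2 were called in the main fit (6.16%), 6 by DESeq2 (10.2%) and in the fit of all 12 libraries (9.56%), 1 with RLE size factors (6.08%) and with rows summed (5.95%), and 0 in limma on log2(FPKM + 1) (3.67%), with 0 to 2 when 1 library was left out (1.86% to 5.70%). For the interaction, 1 was called in the main fit (9.19%), 2 by DESeq2 (16.7%) and in limma on log2(FPKM + 0.1) (10.8%), and 3 with library sizes alone (11.0%), with 0 to 3 when 1 library was left out (4.12% to 12.1%). At baseline the count was 0 under every alternative run, and the members' median of 0.10 ran from -0.06 without Tet2-/- baseline replicate 2 to 0.19 without replicate 3, and was -0.01 in limma on log2(FPKM + 0.1). Counts over all genes that moved by more than 1.5 times included DESeq2 at baseline (320 against 2) and for IR in WT (973 against 377), the replicate block for IR in WT (988), and the interaction by DESeq2 (2804 against 1539). The cause of these shifts was not tested.

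Same-numbered libraries of the 2 genotypes correlated at -0.175, -0.150 and 0.0535 at baseline and at -0.00108, 0.206 and 0.302 after IR. They were not taken as pairs. The values for replicates 2 and 3 after IR lay within the range taken as pairing in kidneys labelled Tet2-/-, 0.120 to 0.350. Whether these libraries share more than a number was not tested. Between genotypes, the replicate block gave 0 members at baseline and 2 after IR, beside 0.0248% and 6.90% of all genes. For the interaction it gave 1, beside 11.0%, and 1 with the block set within each genotype, beside 12.7%. The block within each genotype was an alternative chosen after seeing the data, as was judging overlap on FPKM. Leaving out a library leaves 2 in its group, which limits these fits. Of 90 counts of members called under an alternative, 38 moved by more than 1.5 times. The 1318 other values were judged by kind. A fold change was kept if its direction and its side of the threshold stayed. A median was kept if it moved by less than the spread between replicates, and a count if it moved by at most 1.5 times. By these rules 1104 values were kept, 111 lost a call, 56 gained one and 47 moved further. Depth limits the ligands, Oas3 and Mx1, whose counts ran from 0 to 93.5 per library.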
